A study of Mus musculus with 4 samples.

Results

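The interleukin 12 family and the cytokines that steer T cells were followed here through 10 genes: Ebi3, Il12a, Il12b, Il23a, Il6, Il10 and Il15, which encode secreted subunits or cytokines, and Il15ra, Il6st and Il10ra, which encode receptor chains. All probe sets that the platform annotation assigns to exactly 1 of these symbols were taken, which gave 16 of 22626 probe sets (controls set aside), for 10 of 12393 genes with such a probe set. Of the 16, 11 passed a filter on low signal and were tested, and 9 of the 10 genes had at least 1 tested probe set; Il23a had none. Ebi3 was selected on its signal pattern over these same 4 arrays, so its levels are given as a description with no test. The other genes stand with it as relatives by function, and nothing about the group as a whole is tested.

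Dendritic cells use these cytokines to tell T cells which way to differentiate. The family works by mixing subunits: the alpha chain from Il12a and the beta chain from Il12b form IL-12, which drives T cells towards interferon gamma, and the same Il12b chain with the product of Il23a forms IL-23, which sustains T cells that make interleukin 17. Ebi3 is the beta chain of IL-27, where it joins the product of Il27, and of IL-35, where it joins the product of Il12a. Il6 hinders the formation of regulatory T cells and favours T helper cells of the interleukin 17 type, Il10 restrains dendritic cells and macrophages, and Il15 keeps memory T cells and natural killer cells alive. Langerhans cells are the dendritic cells of the epidermis, where they live among keratinocytes and dendritic epidermal T cells.

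The arrays carried RNA of sorted mouse Langerhans cells. TCDD (2,3,7,8-tetrachlorodibenzo-p-dioxin), which binds and activates the aryl hydrocarbon receptor (AhR), was injected into the peritoneum at 10 µg in 100 µl, and cells were isolated 24 h later and sorted to a purity of 95%. The groups were 2 TCDD samples and 2 controls. TCDD 1 and control 1 name no skin site, TCDD 2 and control 2 come from back skin. TCDD 1 received TCDD in oil, TCDD 2 received it in DMSO and oil, and control 1 received DMSO and olive oil. The labels of control 2 conflict, since title and description name a control and the treatment protocol names TCDD; TCDD differences without it are given for the members. Mouse strain, age, sex and the number of animals behind an array are not stated in the labels, so any p-value measures only the spread between these samples.

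The arrays were not alike in RNA quality. For the actin controls, the ratio of 3′ to 5′ signal was 3.48 on TCDD 1, 7.71 on TCDD 2, 49.7 on control 1 and 4.64 on control 2. Several markers of Langerhans cells were bright, but not all. Epcam read 7541 and 8362 on TCDD 1 and 2, against 8717 and 10032 on controls 1 and 2, while Cd207, which encodes langerin, read 5343 and 2155, against 2120 and 7211. H2-Eb1 read 1404 on control 1 and between 3972 and 7042 on the other arrays. Cdh1 (137.8 to 206.6) and Itgax (115.3 to 230.7) lay around the array medians, which were between 164.9 and 188.15. Of 13 markers of these cells 11 were tested, and Itgam (8.9 to 37.1) and Runx3 (30.6 to 107.7) were dim. Summed over 9 markers, T cell signal was 1395 on TCDD 1, 653 on TCDD 2, 772 on control 1 and 2409 on control 2. The summed signal of 9 keratinocyte markers ranged from 1082 to 1342 over the 4 arrays and that of 8 monocyte, macrophage, granulocyte and mast cell markers from 1953 to 2364. Melanocyte markers (6) summed to between 1169 and 1760, fibroblast and endothelial markers (8) to between 918 and 1248 and B cell markers (3) to between 273.2 and 304.6. No marker had a value of exactly 0 on any array, since MAS5 reports a positive signal for each probe set.

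Signals are MAS5 intensities on a linear scale, scaled by the authors to a common mean, so a value can be set against the same probe set on another array but not against another probe set. As a mark for dim signal, the 20th percentile of each array lay between 36.6 and 40.6. In bulk RNA of sorted cells, fewer cells that make a transcript and less RNA per cell cannot be told apart.

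Promoter sequence is shown for 3 genes whose windows held a motif for a factor that bears on these cytokines. NF-kB is a well known activator of Il6 and the Il12 genes in dendritic cells, and AhR, the receptor that TCDD binds, recognises a core of GCGTG with its partner ARNT. The 250 bases upstream of each start site were searched on both strands, in RefSeq sequence of build GRCm38.p6, for the AhR core GCGTG, for the NF-kB motif and for TTCNNNGAA, the STAT motif. Of the 10 genes 6 had an entry, with 8 windows in all, and every window lies on the plus strand. The matches are in capitals.

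Ebi3, chr17:55952373-55952622: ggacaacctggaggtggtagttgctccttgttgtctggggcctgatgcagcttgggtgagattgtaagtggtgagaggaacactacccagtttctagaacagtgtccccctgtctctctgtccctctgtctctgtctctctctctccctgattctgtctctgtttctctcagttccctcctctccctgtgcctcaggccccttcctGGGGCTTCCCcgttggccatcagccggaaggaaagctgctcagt

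Il6, chr5:30012864-30013113: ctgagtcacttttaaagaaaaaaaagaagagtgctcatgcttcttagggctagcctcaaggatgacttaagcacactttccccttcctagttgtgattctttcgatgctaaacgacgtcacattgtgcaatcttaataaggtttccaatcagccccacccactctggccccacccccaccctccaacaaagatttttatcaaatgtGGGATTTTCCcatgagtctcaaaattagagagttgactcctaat

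Il12a, second start site, chr3:68691174-68691423: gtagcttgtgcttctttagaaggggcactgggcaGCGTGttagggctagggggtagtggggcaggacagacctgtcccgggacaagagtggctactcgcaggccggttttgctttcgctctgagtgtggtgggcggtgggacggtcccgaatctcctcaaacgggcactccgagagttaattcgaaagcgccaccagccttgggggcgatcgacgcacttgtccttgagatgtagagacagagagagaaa

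In Ebi3 and Il6 the NF-kB match, GGGGCTTCCC and GGGATTTTCC, began 44 bases before the start site and ended 35 bases before it. The Ebi3 match reads as the motif on both strands. Of all 32851 promoter windows 7.25% held the NF-kB motif, 28.2% the AhR core and 7.02% the STAT motif. The AhR core occurred once among the members, 216 to 212 bases before the second start site of Il12a. The windows of Il12b, Il6st, Il15ra (2 start sites) and the first start site of Il12a held none of the 3 motifs, and no window of a member held the STAT motif. A match describes letters only.

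Ebi3 was the member with the widest spread over the arrays among those tested. Its probe set (1449222_at) read 93.6 on TCDD 1 and 328.2 on TCDD 2, against 35.8 on control 1 and 165.4 on control 2. The treatment groups overlapped, because TCDD 1 lay below control 2, whereas both back skin arrays lay above both arrays with no site named. Within a preparation TCDD was above control each time, with log2 ratios of 1.39 without a named site and 0.99 in back skin, a mean difference of 1.19. Back skin was above no site named by log2 ratios of 1.81 in TCDD cells and 2.21 in control cells, a mean difference of 2.01. The lowest value, on control 1, was below that array's 20th percentile of 36.6, and control 1 was also the array with the 3′ to 5′ ratio of 49.7; the part of RNA quality in the Ebi3 values was not tested. On the mean of 4 log2 signals Ebi3 stood just inside the filter of 6.85, at 6.86, and a probe set of Il10ra (1437808_x_at) just outside, at 6.849.

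The Ebi3 difference depended on which array was left out. It was 0.08 without control 1 and 0.28 without TCDD 2, against 2.29 without control 2 and 2.09 without TCDD 1 (log2, TCDD minus control). The plot of left-out arrays shows that no other tested member moved as far. A further 5 probe sets are named for the likeness of their profile to that of Ebi3, by the root mean square distance between log2 signals centred on their mean over 4 arrays, among 12416 candidates. They were those of Sox17 (0.39), Rbm5 (0.41), Slc38a3 (0.44), Brms1 (0.45) and Tcta (0.46), where Ebi3 itself had a root mean square of 1.17. Each of the 5 was lowest on control 1, at signals between 43.3 for Slc38a3 and 63.7 for Rbm5. Ebi3 was lowest there too, so this follows from choosing them by likeness to it.

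**Figure D1:**
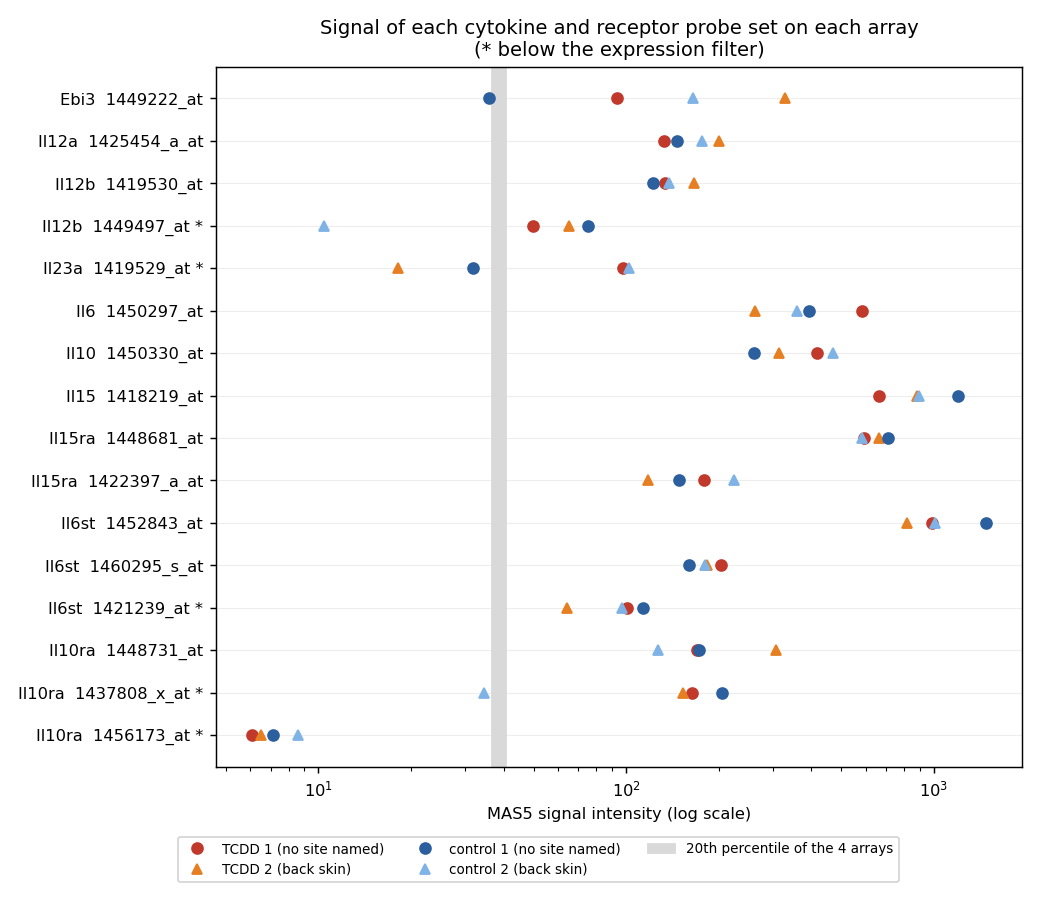
MAS5 signal (log scale) of the 16 probe sets on the 4 arrays; circles are arrays with no site named, triangles back skin, red and orange TCDD, dark and light blue control. The grey band spans the 20th percentiles of the arrays, 36.6 to 40.6. Ebi3 on control 1 (35.8), Il12b 1449497_at on control 2 (10.4), Il23a on TCDD 2 (18.1) and control 1 (31.8), Il10ra 1437808_x_at on control 2 (34.6) and Il10ra 1456173_at on all arrays fall to the left of it.

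Il12a varied much less than Ebi3. This gene, which encodes the alpha chain of IL-12 and a partner of Ebi3 in IL-35, read 132.8 on TCDD 1 and 200.9 on TCDD 2, against 145.8 on control 1 and 176.8 on control 2. TCDD and control overlapped, and the 2 back skin arrays were the 2 highest. The TCDD minus control log2 difference was 0.02 ± 0.41 (SE, n = 2 per group; 95% interval -0.91 to 0.96; limma adjusted p = 0.9999), and that of back skin minus no site named 0.44 ± 0.41 (limma adjusted p = 0.9994). Without control 1 the TCDD difference of Il12a was -0.11, and without TCDD 2 it was -0.27, so its sign rested on single arrays.

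Il12b, the beta chain shared by IL-12 and IL-23, had 2 probe sets. The tested one (1419530_at) read 133.6 and 165.8 on TCDD 1 and 2, against 122 and 137.6 on controls 1 and 2. TCDD was slightly above control in both preparations, though the groups overlapped. The difference was 0.20 ± 0.43 (SE, n = 2 per group; 95% interval -0.79 to 1.19; limma adjusted p = 0.9999). Its other probe set (1449497_at), below the filter, read 49.7 and 65.3 on TCDD 1 and 2, against 75 and 10.4 on controls 1 and 2. Its log2 ratio was -0.59 without a named site and 2.65 in back skin, where the control value of 10.4 lay far under that array's 20th percentile of 40.6. The mean difference of 1.03 turned to -0.40 without control 2 and was 0.05 when signals under the 20th percentile were raised to it.

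Il23a, the alpha chain particular to IL-23, gave values too dim to test. It read 97.4 on TCDD 1 and 18.1 on TCDD 2, against 31.8 on control 1 and 102.5 on control 2. TCDD 1 and control 2 were high and the other arrays were below their 20th percentiles. The log2 ratio of TCDD to control was therefore 1.61 without a named site and -2.50 in back skin. Summed T cell marker signal was also higher on TCDD 1 and control 2 (1395 and 2409) than on TCDD 2 and control 1 (653 and 772). So was the signal of Cd207 (5343 and 7211, against 2155 and 2120). Not all markers followed this order. Cd247 and Gzmb were lower on TCDD 1 (117.5 and 17.9) than on control 1 (139.2 and 75.7). Summed over 13 Langerhans cell markers, signal was 57077 on TCDD 1, 57411 on TCDD 2, 47587 on control 1 and 68684 on control 2. The part of T cell or Langerhans cell signal in the Il23a values was not tested.

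Il6, an inflammatory cytokine that signals through the chain encoded by Il6st, read 584.4 on TCDD 1 and 261.6 on TCDD 2, against 391.9 on control 1 and 360.3 on control 2. The TCDD arrays were both the highest and the lowest of the 4, so the group means nearly coincided. The TCDD minus control difference was 0.06 ± 0.38 (SE, n = 2 per group; 95% interval -0.81 to 0.92; limma adjusted p = 0.9999). By preparation, back skin was the lower in TCDD cells (261.6 against 584.4) and in control cells (360.3 against 391.9), with a difference of -0.64 ± 0.38 (95% interval -1.50 to 0.22; limma adjusted p = 0.9994). Of the tested members without Ebi3 this was the difference between preparations that was largest in size, and it did not pass the test. The TCDD difference was -0.52 without TCDD 1 and 0.64 without TCDD 2, and it was 0.12 without control 1 and -0.0033 without control 2.

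Il10, the anti-inflammatory cytokine of the set, read 416.3 on TCDD 1 and 313.1 on TCDD 2, against 260 on control 1 and 471 on control 2. As with Il23a, TCDD 1 and control 2 were the higher arrays, and the groups overlapped fully. Its TCDD minus control difference was 0.05 ± 0.40 (SE, n = 2 per group; 95% interval -0.87 to 0.96; limma adjusted p = 0.9999). It was -0.38 without control 1 and 0.47 without control 2. Summed T cell marker signal was higher on the same arrays, as given above, but Cd247 and Gzmb were lower on TCDD 1 than on control 1. Cd207 was also highest on TCDD 1 and control 2 (5343 and 7211). Summed over 13 Langerhans cell markers, signal was not higher on TCDD 1 than on TCDD 2 (57077 against 57411). Over all 13576 tested probe sets, 4554 were above control with no site named and below it in back skin. The part of T cell or Langerhans cell signal in the Il10 values was likewise not tested.

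Il15 encodes a cytokine that is presented to neighbouring lymphocytes on the alpha chain encoded by Il15ra. Its probe set read 665 on TCDD 1 and 881.4 on TCDD 2, against 1201 on control 1 and 897.3 on control 2. Both TCDD arrays were below both controls, by a wide margin with no site named (log2 ratio -0.85) and by almost nothing in back skin (-0.03). The difference was -0.44 ± 0.37 (SE, n = 2 per group; 95% interval -1.28 to 0.40; limma adjusted p = 0.9999), and it lay at -0.23 without control 1 and -0.65 without control 2. Over all 13576 tested probe sets, 13.2% had both TCDD arrays below both controls and 12.4% had both above.

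Il15ra was read by 2 tested probe sets whose log2 ratios of TCDD to control differed in sign within each preparation. The probe set 1448681_at read 592.7 and 661.5 on TCDD 1 and 2, against 710.8 and 584.4 on controls 1 and 2. These values lay close together and overlapped, with a difference of -0.04 ± 0.35 (SE, n = 2 per group; 95% interval -0.83 to 0.75). The probe set 1422397_a_at read 179.6 and 117.9 on TCDD 1 and 2, against 148.3 and 224.5 on controls 1 and 2, a difference of -0.33 ± 0.45. It was above control with no site named (log2 ratio 0.28) and below it in back skin (-0.93), while 1448681_at had ratios of -0.26 and 0.18. For both, the limma adjusted p was 0.9999.

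Il6st encodes gp130, the signalling chain that the receptors for interleukins 6, 27 and 35 share. Its bright probe set (1452843_at) read 985.1 on TCDD 1 and 816.7 on TCDD 2, against 1475 on control 1 and 1006 on control 2. Both TCDD arrays were below both controls, with log2 ratios of -0.58 without a named site and -0.30 in back skin. The difference was -0.44 ± 0.34 (SE, n = 2 per group; 95% interval -1.23 to 0.34; limma adjusted p = 0.9999), and without control 1 it was -0.17. The highest signal of this probe set, as of Il15, was on control 1, whose actin ratio was 49.7; the part of RNA quality in either was not tested.

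The other Il6st probe sets did not show 1 direction. The tested 1460295_s_at, whose suffix marks probes that can match several transcripts, read 204 and 183 on TCDD 1 and 2, against 160.5 and 180.2 on controls 1 and 2. Here both TCDD arrays were above both controls, by a difference of 0.18 ± 0.39 (SE, n = 2 per group; limma adjusted p = 0.9999). The dim 1421239_at, below the filter, read 100.7 and 64 on TCDD 1 and 2, against 113.3 and 96.9 on controls 1 and 2, a mean difference of -0.38 with overlapping groups.

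Il10ra encodes the ligand-binding chain of the interleukin 10 receptor, and its tested probe set (1448731_at) had the difference largest in size between TCDD and control among the tested members other than Ebi3. It read 169.8 on TCDD 1 and 307.5 on TCDD 2, against 172.3 on control 1 and 127.1 on control 2. Only TCDD 2 stood apart: the log2 ratio was -0.02 without a named site and 1.27 in back skin. The difference was 0.63 ± 0.44 (SE, n = 2 per group; 95% interval -0.39 to 1.64; limma adjusted p = 0.9999), and 0.20 without TCDD 2. Of the probe sets below the filter, 1437808_x_at read 163.2 and 153.2 on TCDD 1 and 2, against 204.3 and 34.6 on controls 1 and 2, so that its difference of 0.91 turned to -0.37 without control 2. The third (1456173_at) lay between 6.1 and 8.6 on all arrays, below the 20th percentile of each.

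**Figure D2:**
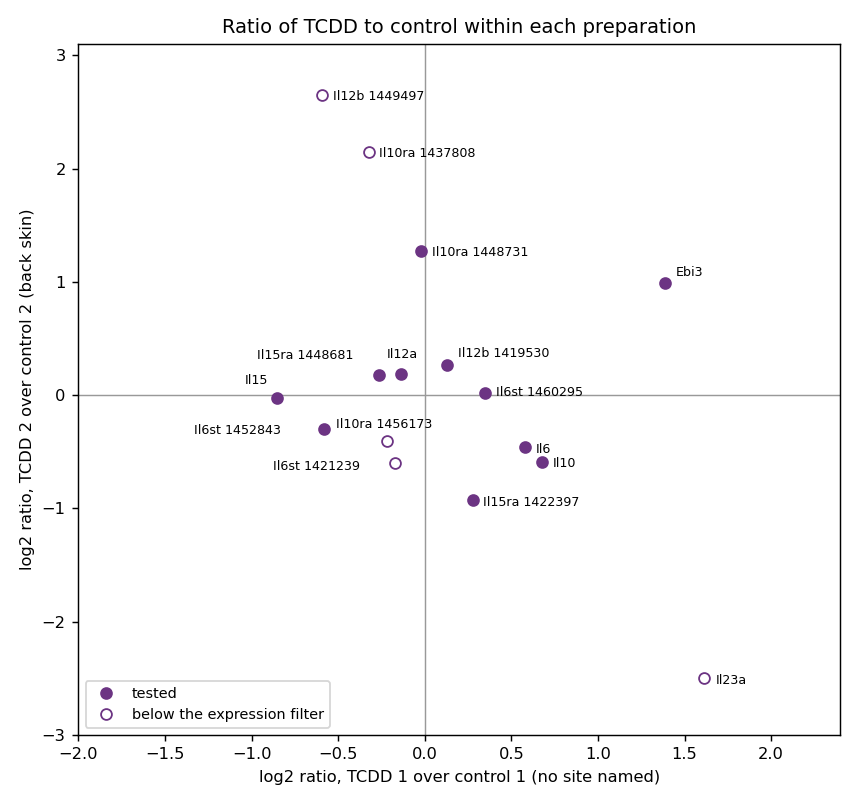
Each point is 1 probe set: the horizontal axis is the log2 ratio of TCDD 1 to control 1 (no site named), the vertical axis that of TCDD 2 to control 2 (back skin), and open circles lie below the expression filter. Ebi3 is at 1.39 and 0.99 in the upper right; Il23a is at 1.61 and -2.50 in the lower right, and Il6 and Il10 lie in the same quadrant.

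Counted over the 11 tested probe sets, 3 were above control in both preparations (those of Ebi3, Il12b and Il6st 1460295_s_at), 2 were below in both (Il15 and Il6st 1452843_at) and 6 went opposite ways. Over all 13576 tested probe sets the shares were 19.3% above in both, 21.3% below in both and 59.4% opposite. Without Ebi3, which was chosen for its values, the counts were 2, 2 and 6 of 10. The median TCDD minus control log2 difference was 0.03 over the 10 tested probe sets without Ebi3 and -0.01 over all tested probe sets. Both TCDD arrays exceeded both controls for 1 of the 11 and were under both for 2, against a background of 12.4% and 13.2%. Between the preparations, both back skin arrays were above both others for 3 of the 11 (Ebi3, Il12a and Il12b) and below both for 1 (Il6), where 16.1% and 15.9% of all tested probe sets did so. Back skin was above under both treatments for 3 of the 11 and below under both for 2, beside 22.8% and 21.8% of all tested probe sets. Leaving Ebi3 aside, both back skin arrays were above both others for 2 of 10 and below both for 1.

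Without control 2, the array with conflicting labels, the TCDD difference was 0.16 for Il12a, 0.29 for Il12b, -0.18 for Il15ra 1448681_at and -0.027 for Il15ra 1422397_a_at. It was then -0.72 for Il6st 1452843_at, 0.27 for Il6st 1460295_s_at and 0.41 for Il10ra 1448731_at, so none of these changed sign and none passed the test. Of the probe sets below the filter, Il23a turned to 0.40, against -0.44 over all arrays, while Il6st 1421239_at was -0.50 and Il10ra 1456173_at -0.17. The back skin difference without control 2 was 2.50 for Ebi3 and -0.87 for Il6.

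No member probe set passed the test in either comparison. Of the 13576 probe sets tested, 0 were called higher and 0 lower (0% each) for TCDD against control, with 199 (1.47%) at an unadjusted p under 0.05, and 0 of the 10 member probe sets other than Ebi3 reached that level (limma). Limma fits without 1 of the controls keep treatment alone and leave 1 control array. In them the TCDD difference of Ebi3 was 2.29 without control 2 and 0.08 without control 1. Without control 2 the only control left was control 1, the array with the actin ratio of 49.7. The part of RNA quality in these differences was not tested. For back skin against no site named 0 were called in either direction (0%), and 274 (2.02%) had an unadjusted p under 0.05 (limma). Of the 10 member probe sets other than Ebi3, 0 reached that level. Over the members' intervals the plot of differences shows that log2 changes of up to 1.64 upwards, for Il10ra, or -1.36 downwards, for Il15ra 1422397_a_at, fit within the 95% limits for TCDD. With 2 arrays against 2, an exact two-sided permutation test of a single value cannot go below p = 0.333.

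**Figure D3:**
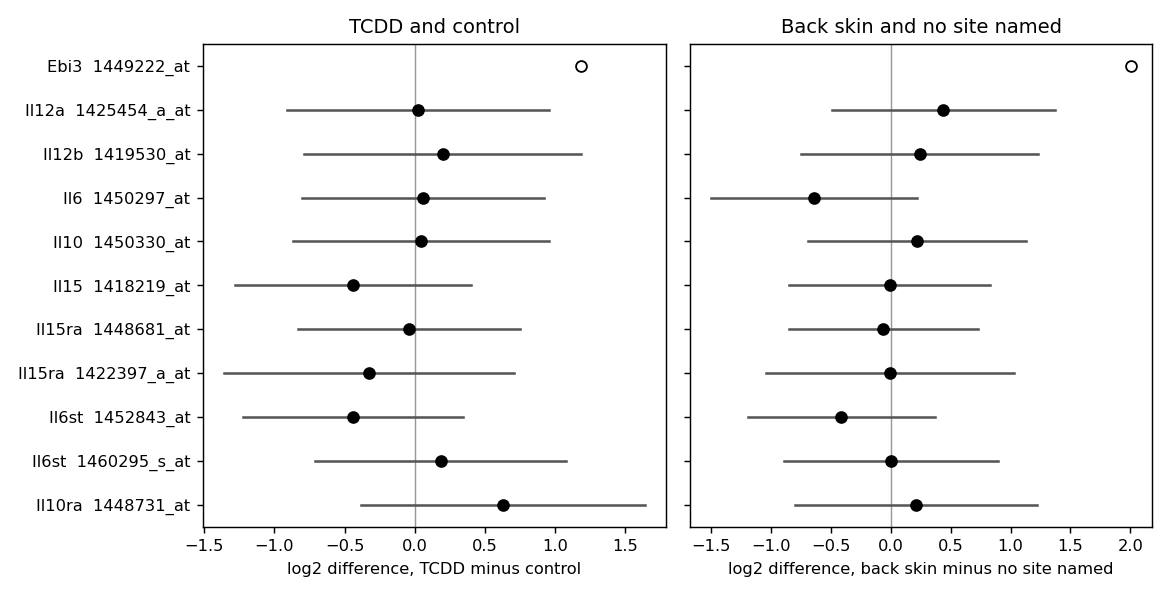
Log2 difference of TCDD minus control (left) and of back skin minus no site named (right) for the 11 tested probe sets; points are estimates from the 4 arrays and bars 95% intervals of the limma fit. All 10 bars in each panel include 0, and Ebi3 (open circle, 1.19 and 2.01) has no bar because it was chosen for its values.

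**Figure D4:**
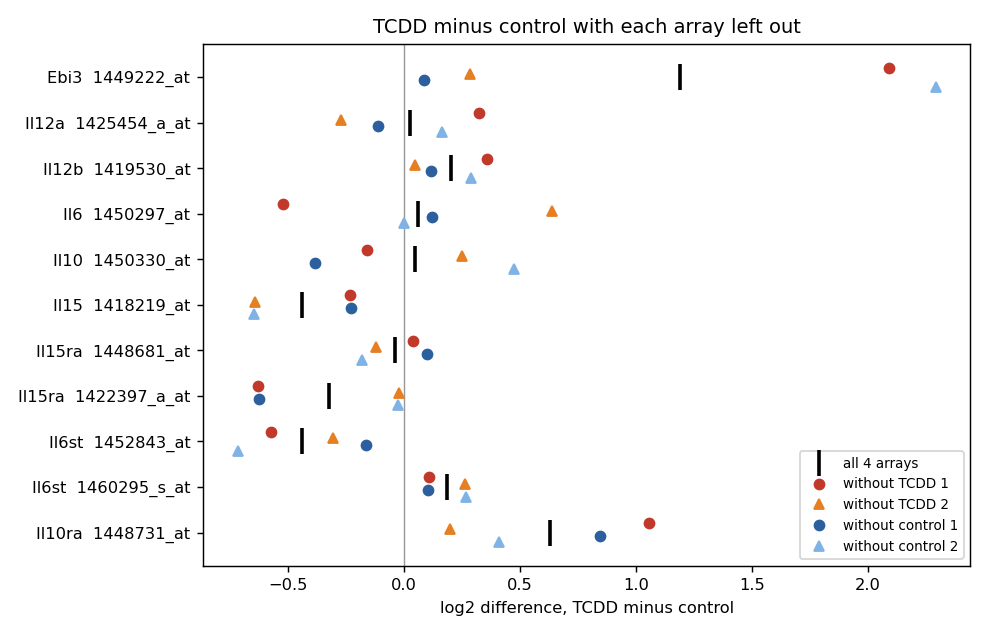
TCDD minus control log2 difference of the 11 tested probe sets from all 4 arrays (black bars) and with each array left out in turn (coloured points, offset vertically for legibility). Ebi3 runs from 0.08 without control 1 to 2.29 without control 2; Il12b, Il15, Il15ra 1422397_a_at, both Il6st probe sets and Il10ra also keep their sign.

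Further genes of the pathway were taken from lists by function, each gene read by its brightest probe set, and 0 of their members passed the test in either comparison (limma). Of 8 other receptor chains of these cytokines 6 had a probe set with exactly 1 gene symbol and 3 were tested. Il10rb, the second chain of the interleukin 10 receptor, read 1223 and 1087 on TCDD 1 and 2, against 1383 and 1147 on controls 1 and 2. It was below control in both preparations (-0.13 ± 0.34, SE, n = 2 per group). Il6ra, the binding chain for interleukin 6, differed by -0.28 ± 0.38 and Il2rb, a chain of the interleukin 15 receptor, by -0.08 ± 0.41, with preparations in opposite directions. The dim Il12rb1, Il12rb2 and Il27ra, receptor chains for IL-12, IL-23 and IL-27, read between 16.1 and 158 and were not tested. Il27, the partner of Ebi3 in IL-27, was not analysed here.

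Of 12 other cytokines of these families 7 had a probe set with exactly 1 gene symbol and 5 were tested. Of these 5, 0 were above control in both preparations, 1 was below in both and 4 were opposite. Over all 8413 tested genes read this way, 17.9% were above in both and 22.8% below in both, and 4986 genes went opposite ways. Lif, a cytokine of the interleukin 6 family, was the one below in both, with 138.9 and 185.9 on TCDD 1 and 2, against 217.2 and 232.7 on controls 1 and 2 (-0.48 ± 0.39). Ctf1, Clcf1 and Il24 differed by 0.62 ± 0.49, 0.44 ± 0.48 and 0.08 ± 0.39. Ctf1 and Clcf1, which signal through gp130, were low on control 1 alone, at 94.9 and 107.3, and read between 232.9 and 359.8 elsewhere. Of the T helper cytokines 8 of 10 had a probe set with exactly 1 gene symbol and 1, Il17a, was tested (0.27 ± 0.39).

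The signalling list of Janus kinases, STAT factors and their inhibitors had 16 of 18 genes tested. Of these, 2 were above control in both preparations, 2 below in both and 12 opposite. Over all 8413 tested genes the counts were 1509, 1918 and 4986. The median difference was 0.02, against -0.03 over all tested genes. Cish, a feedback inhibitor of cytokine receptors, read 1019 and 1588 on TCDD 1 and 2, against 917.8 and 833.1 on controls 1 and 2 (0.54 ± 0.37). Its relative Socs2 differed by 0.31 ± 0.37, Jak3, the kinase of the common gamma chain, by 0.22 ± 0.39, and Pias1, a STAT inhibitor, by -0.22 ± 0.34.

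Transcription factors known to act on these cytokine genes had 12 of 14 members tested. Of these, 5 were above control in both preparations, 3 below in both and 4 opposite, with a median difference of 0.18. Over all 8413 tested genes, 17.9% were above in both and 22.8% below in both. Irf4, an interferon regulatory factor of dendritic cell subsets, read 227.7 and 190.8 on TCDD 1 and 2, against 106.5 and 145.7 on controls 1 and 2 (0.74 ± 0.42). Batf3, a factor of cross-presenting dendritic cells, read 1968 and 2906 on TCDD 1 and 2, against 1693 and 1574 on controls 1 and 2 (0.55 ± 0.35). For Irf5, an activator of Il12b, the values were 1638 and 2324 on TCDD 1 and 2, against 1344 and 1448 on controls 1 and 2 (0.48 ± 0.34). In these 3 genes and in Spi1 both TCDD arrays were above both controls, while in Rel and Nfil3 both were below. Over all 8413 tested genes, 962 had both TCDD arrays above both controls and 1186 had both below. Relb, an NF-kB subunit, differed by 0.38 ± 0.43 with a low signal on control 1 (1113) and signals of 2243 to 3017 on the other arrays. By limma, each of the listed genes named here had an adjusted p of 0.9999 for TCDD.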

How the data were processed

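Each sample was 1 one-colour Affymetrix array. Per the labels' protocols, Trizol extraction was followed by MessageAmp amplification and biotin labelling, which makes signals depend on the distance from the 3′ end. The authors deposited linear MAS5 signal intensities; affy and MAS5 are named in the submitters' processing notes. The sources used here give no versions, detection calls or background correction. Each deposited column had a mean of 500 after 2% of probe sets were trimmed at each end.

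Of 22690 probe sets, 64 controls were left out. Of the rest, 20380 had 1 gene symbol, 691 several and 1555 none. All 16 member probe sets matched a RefSeq gene (GRCm38.p6) by gene ID under the same symbol. The 13576 probe sets whose mean log2 signal reached the 40th percentile (6.85) were tested on the log2 signal in R 4.3.3 by limma 3.58.1. The model added treatment and preparation, eBayes used a mean-variance trend, and p-values were adjusted by Benjamini-Hochberg at 0.05. This leaves 1 residual degree of freedom, so 4 arrays limit the precision, with a median standard error of 0.364. "Preparation" stands for the labelled skin site. The control labels also name different experiments and the TCDD labels name none, so that a preparation shares an experiment is assumed; arrays of a preparation did not deviate together (Pearson's r -0.18 across probe sets, which are not replicates). The fit was tested on simulated data. The members and lists were chosen with earlier results of these data known. All member probe sets are named, with up to 4 genes per list by absolute difference and 5 profiles nearest to Ebi3. Spi1, Rel and Nfil3 were named in addition, for the order of their arrays. Alternatives were other normalizations, filters, low-signal settings and variance models, no preparation term, each array left out, and 1 probe set per gene.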

Additional observations from a re-analysis of the deposited data

Results flagged for a closer look

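For 6 of the 11 tested probe sets the log2 ratio of TCDD to control had opposite signs in the 2 preparations. The ratio with no site named minus the ratio in back skin was 1.04 for Il6, 1.27 for Il10 and 1.21 for Il15ra 1422397_a_at. It was -0.32 for Il12a, -0.44 for Il15ra 1448681_at and -1.30 for Il10ra 1448731_at. Each ratio rests on 1 array per arm, so these differences were not tested. Opposite signs occurred in 59.4% of all tested probe sets.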

How the results depend on the processing

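The count of member probe sets past the test, with Ebi3 left out of it, was 0 in both comparisons under every alternative with all 4 arrays. Over all probe sets it was 0 for TCDD in the fits with all 4 arrays and the preparation term or none, and between 0 and 285 with 1 array left out: 12 without control 1, 285 without control 2 and 0 without either TCDD array. For back skin it lay between 0 and 89, with 89 without TCDD 1. The fits with 1 array left out keep the tested term alone, treatment for TCDD and preparation for back skin, and take a group's single array to vary as the other group does. For TCDD without control 2 and for back skin without TCDD 1, that single array was control 1, whose actin ratio was 49.7. The part of RNA quality in these counts was not tested. Pairing TCDD 1 with control 2 and TCDD 2 with control 1, chosen after seeing the data, gave 10 probe sets for TCDD and 0 members other than Ebi3. Under processing alternatives the sign changed in 0 of 91 TCDD differences of tested member probe sets and in 2 of 35 of those below the filter, Il23a (0.013) and Il10ra 1456173_at (0.026), both with signals raised to the 20th percentile. For back skin it changed in 1 of 30 below the filter (Il23a, 0.086, same setting) and in 4 of 80 tested: Il15 was 0.025 and Il6st 1460295_s_at -0.052 after quantile normalization, Il6st 1460295_s_at was -0.057 after median centring and Il15ra 1422397_a_at was 0.0056 with an offset of 32. Their values over all arrays were -0.0072 (Il15), 0.0052 (Il6st) and -0.0045 (Il15ra). Leaving out arrays changed the sign of 8 of 44 TCDD differences of tested probe sets and 4 of 20 below the filter, with tested ranges of -0.27 to 0.32 for Il12a, -0.52 to 0.64 for Il6, -0.38 to 0.47 for Il10 and -0.18 to 0.10 for Il15ra 1448681_at. It changed 11 of 44 tested back skin differences and 4 of 20 below the filter, with tested ranges of -0.12 to 0.56 for Il10, -0.43 to 0.42 for Il15, -0.19 to 0.069 for Il15ra 1448681_at and -0.47 to 0.46 for Il15ra 1422397_a_at. The range was -0.17 to 0.18 for Il6st 1460295_s_at and -0.43 to 0.85 for Il10ra 1448731_at. The cause of these sign changes was not tested.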
